A study of Mus musculus with 17 samples.

Results

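The 8 genes described here carry the core of the Hedgehog pathway: the ligands Shh and Ihh, the receptor Ptch1, the ligand-binding inhibitor Hhip, the signal transducer Smo and the transcription factors Gli1, Gli2 and Gli3. They were chosen by symbol as the core of the pathway, and all 8 were found, among 13905 genes in the files of the Ctnnb1, combined and wild-type groups and among 39179 genes in those of the inducible model. RNA sequencing was done on 17 frozen samples of prostate tumour or prostate from C57BL/6 mice. The Ctnnb1 tumours (genotype Ctnnb1pc(ex3)delta/+, 3 libraries, about 12 months) carry 1 Ctnnb1 allele without exon 3, a change that stabilises beta-catenin, the transcriptional co-activator of Wnt signalling. The combined tumours (3 libraries, about 6 to 8 months) add a further engineered change to it. The wild-type (WT) prostates (3 libraries) came from mice of 12 months. The inducible model has the combined genotype under CreERT2, a drug-dependent Cre, and gave 3 androgen-deprived (ADT) and 2 mock-treated libraries, all from tumours of about 15 months. The labels do not name the Cre behind "pc" or the length of androgen deprivation. The titles of the ADT libraries hold "cast" and those of the mock libraries "ctrl", without spelling out the means. Whether each library came from a separate animal is not stated either, so p-values measure the spread between these libraries only. Age and genotype differ together in the combined group.

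Hedgehog ligands are secreted proteins that bind Ptch1 on a receiving cell, which frees Smo from inhibition and turns the Gli factors into activators. Ptch1, Hhip and Gli1 are themselves Hedgehog target genes in many tissues, and Ptch1 and Hhip hold the signal back. In the prostate, ligand made in the epithelium is best known for acting on the surrounding mesenchyme, where the Gli genes are expressed, during formation of the gland.

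The 250 bases before the annotated start are shown for Ihh and Hhip, the 2 members with the largest changes against WT (RefSeq, GRCm38.p6, 5′ to 3′ on the coding strand), with each CpG in capitals: Ihh at chr1:74951673-74951922, minus strand, and Hhip at chr8:80058009-80058258, minus strand.
Ihh: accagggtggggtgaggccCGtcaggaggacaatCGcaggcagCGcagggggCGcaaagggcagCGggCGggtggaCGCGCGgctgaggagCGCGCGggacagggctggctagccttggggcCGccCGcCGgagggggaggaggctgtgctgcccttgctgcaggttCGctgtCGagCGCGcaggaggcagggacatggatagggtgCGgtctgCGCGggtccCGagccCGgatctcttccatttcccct
Hhip: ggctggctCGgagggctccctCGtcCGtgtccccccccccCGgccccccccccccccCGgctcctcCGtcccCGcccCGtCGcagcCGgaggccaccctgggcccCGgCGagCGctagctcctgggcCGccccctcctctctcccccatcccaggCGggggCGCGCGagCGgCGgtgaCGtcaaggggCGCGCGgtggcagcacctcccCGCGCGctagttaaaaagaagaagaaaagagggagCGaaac
The Ihh stretch holds 24 CpG and is 72.0% G or C, and the Hhip stretch holds 28 CpG and is 76.0% G or C, against medians of 6 CpG and 52.4% over all promoters in the table. Members with smaller changes were rich in CpG as well, with 41 in Ptch1, 34 in Gli3, 22 in Gli2 and 15 in Smo. Promoter windows of 300 bases, which run 50 bases past the start, were in the table for 6 of the 8 members, all but Shh and Gli1. The GLI motif GACCACCCA, searched on both strands, was in 0 of these 6 and in 0.253% of the 32851 promoters. Its inner letters ACCACCC were in 1 of 6, that of Gli2, and in 4.61% of all promoters. The TCF/LEF letters CTTTGA were in 0 of 6 and in 16.0% of all. The absence of these letters says nothing about sites elsewhere.

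Values are gene read counts after scaling of each library by the authors and rounding to whole numbers, called scaled read counts here. They summed to between 30591734 and 35120175 per library in the tumours and to between 45675083 and 47248750 in the 3 WT prostates. The depth behind them is unknown. Changes are differences of log2(value + 1) with their standard error (SE), which understates the change of genes of low value, and a gene was called at an adjusted p under 0.05 (limma, Benjamini-Hochberg over all genes tested). Pbsn (probasin), an androgen-driven secretory gene of the prostate, stood at 7403 to 65567 in Ctnnb1 tumours and 4885 to 39687 in combined tumours, against 383138 to 555331 in WT, and at 0 to 5 in ADT tumours against 2475 and 2533 in mock tumours, so this marker of prostate epithelium was present in every group but ADT, where it was near 0. Smooth muscle genes summed to 2443 to 4928 in Ctnnb1 tumours and 7823 to 23316 in combined tumours, against 162884 to 206259 in WT. In bulk tissue, fewer cells of a type and less RNA per cell cannot be told apart. Replicate 12 of the combined group stood apart from replicates 10 and 11 in its stroma: the 10 fibroblast and stroma genes summed to 42925 there, to 293659 and 589067 in the other combined libraries and to 21693 to 31853 in Ctnnb1 tumours, against 36602 to 43089 in WT.

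Set against WT, the Hedgehog genes of Ctnnb1 tumours had a changed ligand, a higher receptor and lower levels of 2 of the 3 Gli factors. Ihh and Ptch1 rose, and Shh, Hhip, Smo, Gli1 and Gli3 fell, so that 7 of 8 members (87.5%) were called. Over all 13905 genes 58.5% were called, 28.9% higher and 29.6% lower, so calls were common in this comparison. The libraries of the 2 groups did not overlap for 7 members, a pattern shown by 71.5% of all genes. In combined tumours 3 of 8 members (37.5%) were called, Ihh higher and Shh and Hhip lower, against 57.8% of all genes (28.3% higher and 29.5% lower), and 4 members did not overlap with WT, against 66.1% of all genes. The median log2 change of the 8 members was -1.41 in Ctnnb1 tumours and 0.217 in combined tumours, where that of all genes was 0.00281 and -0.0114. The 2 comparisons share the WT libraries, and the difference between the 2 tumour groups was not tested here.

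**Figure D1:**
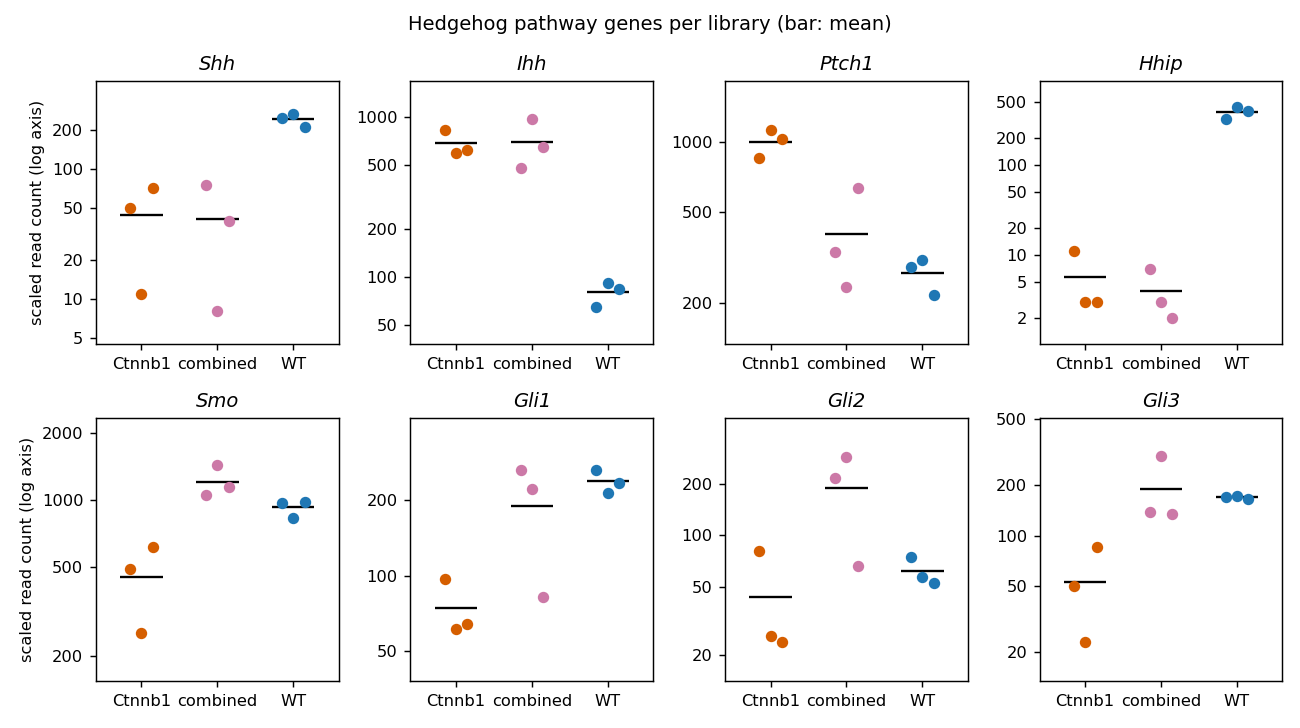
Scaled read counts (log axis) of the 8 genes in each library of the Ctnnb1, combined and WT groups, with points for libraries and bars for group means. Ihh lies above WT and Shh and Hhip below it in all 6 tumour libraries, while Ptch1 is higher in Ctnnb1 tumours and the Gli genes are spread out in combined tumours.

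The ligands changed in opposite directions. Ihh, a ligand best known from cartilage and gut epithelium, lies on chromosome 1 at 74945315 to 74951672 (GRCm38, GENCODE M21, minus strand). It had 828, 595 and 623 scaled reads in Ctnnb1 tumours, against 65, 92 and 84 in WT. In combined tumours the values were 478, 976 and 647. Every tumour library lay far above the highest WT library. The log2 change was 3.07 (SE 0.27, adjusted p = 6.31e-05, limma) in Ctnnb1 tumours and 3.06 (SE 0.27, adjusted p = 5.95e-05) in combined tumours. Taken relative to the fibroblast and stroma genes, the change in combined tumours was 1.23 (adjusted p = 0.134). That scaling put the median of all genes at -1.85 in combined tumours and at 0.352 in Ctnnb1 tumours.

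Shh, the ligand of the prostate bud in development, lies on chromosome 5 at 28456815 to 28467256 (minus strand). It had 50, 11 and 72 scaled reads in Ctnnb1 tumours, against 248, 267 and 210 in WT. Combined tumours had 75, 8 and 40. All 6 tumour libraries were below all 3 WT libraries, and within each tumour group the lowest library was far under the other 2. The log2 change was -2.77 (SE 0.87, adjusted p = 0.0242, limma) in Ctnnb1 tumours and -2.99 (SE 0.87, adjusted p = 0.0176) in combined tumours. With 1 library left out the adjusted p passed 0.05 in Ctnnb1 tumours without replicate 14 (change -1.98, adjusted p = 0.0702) and without WT replicates 1, 2 or 3 (adjusted p = 0.0627, 0.0664 and 0.0532), and in combined tumours without WT replicate 2 (adjusted p = 0.0521). In 807 of its 2847 exon bases Shh overlaps genes of the other strand (9530036O11Rik and Gm26894), and no source used here says that reads were counted by strand. In the inducible model, whose files list both, Gm26894 had 6, 81 and 30 scaled reads in ADT tumours, against 2 and 63 in mock tumours, and 9530036O11Rik had 5, 22 and 13 in ADT tumours, against 1 and 33 in mock tumours. Both were high and low in the same libraries as Shh, and their part in the Shh counts was not tested.

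Per kilobase of exon, Ihh made up 93.93%, 98.06% and 88.99% of the summed Shh and Ihh in Ctnnb1 tumours, against 19.67%, 24.35% and 27.2% in WT. It made up 85.62%, 99.13% and 93.79% in combined tumours. Ihh was the minor ligand transcript in every WT library and the major one in every tumour library. The log2 ratio of Ihh to Shh per kilobase averaged 4.21 ± 1.34 in Ctnnb1 tumours and 4.44 ± 2.18 in combined tumours, against -1.70 ± 0.31 in WT (SD, n = 3 each; exact two-sided permutation test, p = 0.1 in both comparisons, the smallest p that 3 against 3 libraries allow).

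**Figure D2:**
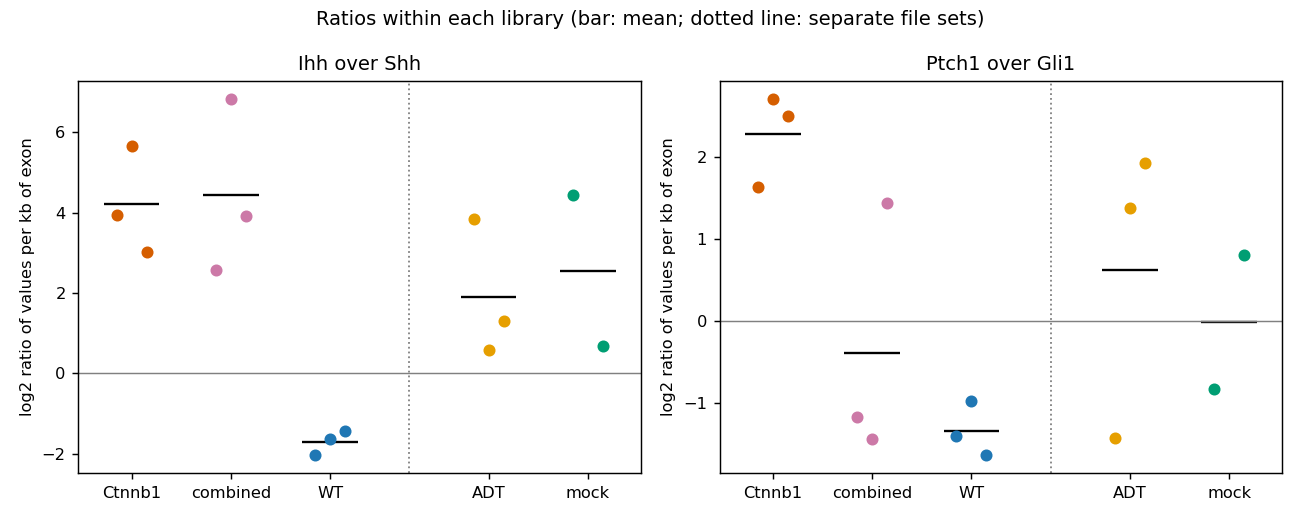
Log2 ratio of Ihh to Shh (left) and of Ptch1 to Gli1 (right), each per kilobase of exon, in every library, with bars for group means; the inducible model is to the right of the dotted line. The Ihh to Shh ratio is above 0 in the 6 tumour libraries and below 0 in the 3 WT libraries at left, and above 0 in all 5 libraries at right; the Ptch1 to Gli1 ratio is above 0 in the 3 Ctnnb1 libraries, combined replicate 12, ADT replicates 2 and 3 and mock replicate 2.

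Hhip, a membrane protein that binds Hedgehog ligands and keeps them from Ptch1, had the largest change of the 8. It lies on chromosome 8 at 79965851 to 80058006 (minus strand) and had 11, 3 and 3 scaled reads in Ctnnb1 tumours, against 321, 432 and 395 in WT. The 3 combined libraries had 7, 3 and 2. The log2 change was -6.04 (SE 0.56, adjusted p = 8.13e-05, limma) in Ctnnb1 tumours and -6.38 (SE 0.56, adjusted p = 6.04e-05) in combined tumours, and the call held without any 1 library. The smooth muscle genes fell with it, all 10 of 10 in each comparison; their part in the Hhip result was not tested.

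Ptch1, the receptor, lies on chromosome 13 at 63508328 to 63573598 (minus strand). It had 854, 1134 and 1032 scaled reads in Ctnnb1 tumours, against 286, 309 and 216 in WT. The Ctnnb1 libraries lay apart from WT, with a log2 change of 1.90 (SE 0.33, adjusted p = 0.00157, limma). In the combined group there were 335, 234 and 631, which overlapped with WT (change 0.46, SE 0.33, adjusted p = 0.263). Their highest library was replicate 12, the library with the least stroma. Rescaling to equal library totals moves the median of all genes by 0.492 in Ctnnb1 tumours and 0.504 in combined tumours. With it the change of Ptch1 in combined tumours was 0.97 (adjusted p = 0.0305). Relative to the stroma genes the change of Ptch1 there was -1.38 (adjusted p = 0.0961), where the median of all genes was -1.85.

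Smo, the transducer, lies on chromosome 6 at 29735503 to 29761365 (plus strand). It had 493, 254 and 614 scaled reads in Ctnnb1 tumours, against 975, 831 and 985 in WT, a log2 change of -1.12 (SE 0.29, adjusted p = 0.0110, limma). The combined tumours had 1052, 1428 and 1146, all above the highest WT library, with a log2 change of 0.37 (SE 0.29, adjusted p = 0.304). Smo thus lay under WT in every Ctnnb1 library and over it in every combined library. With equal totals the changes were -0.63 (adjusted p = 0.0821) and 0.88 (adjusted p = 0.0249). Relative to the stroma genes the change in combined tumours was -1.47 (adjusted p = 0.0852), where the median of all genes was -1.85.

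Of the Gli factors, Gli1 and Gli3 fell in Ctnnb1 tumours, and none of the 3 was called in combined tumours. Gli1, an activator and target of the pathway (chromosome 10 at 127329882 to 127341974, minus strand), had 97, 61 and 64 scaled reads in Ctnnb1 tumours, against 266, 214 and 236 in WT. Its log2 change was -1.70 (SE 0.42, adjusted p = 0.00858, limma), and no Ctnnb1 library reached the lowest WT library. In combined tumours the values were 265, 223 and 82, with replicates 10 and 11 inside the WT range and replicate 12 near the Ctnnb1 libraries (change -0.49, SE 0.42, adjusted p = 0.346; 0.03 without replicate 12 and 0.03 with equal totals). Gli1 shares 327 of its 4995 exon bases with Arhgap9 and Gm47200 on the other strand. Arhgap9, a gene of blood cells, had 124, 106 and 131 scaled reads in Ctnnb1 tumours and 360, 261 and 96 in combined tumours, against 70, 41 and 53 in WT; its part in the Gli1 counts was not tested.

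Gli3, which yields the main repressor form of the family (chromosome 13 at 15463235 to 15730026, plus strand), had 50, 23 and 86 scaled reads in Ctnnb1 tumours, against 170, 173 and 165 in WT, a log2 change of -1.85 (SE 0.48, adjusted p = 0.0111, limma). Combined tumours had 139, 298 and 134, on both sides of WT (change 0.06, SE 0.48, adjusted p = 0.916; -0.31 without replicate 11). Relative to the stroma genes the falls of Smo, Gli1 and Gli3 in Ctnnb1 tumours were -0.77, -1.35 and -1.50 and none was called (adjusted p = 0.769, 0.353 and 0.274). Under that scaling 1685 genes in all were called in Ctnnb1 tumours, against 8131 before it.

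Gli2, the main activator in many tissues (chromosome 1 at 118834132 to 119053619, minus strand), had 81, 26 and 24 scaled reads in Ctnnb1 tumours, against 75, 57 and 53 in WT, and the groups overlapped (change -0.70, SE 0.63, adjusted p = 0.359). The 3 combined libraries had 217, 287 and 66. Replicates 10 and 11 were above every WT library and replicate 12 was not, and the change of 1.38 (SE 0.63) missed the threshold (adjusted p = 0.0894, limma). Without replicate 12 it was 2.02 (adjusted p = 0.0120), with equal totals 1.89 (adjusted p = 0.0240) and relative to the stroma genes -0.45 (adjusted p = 0.608). Under this last scaling the median of all genes was -1.85.

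**Figure D3:**
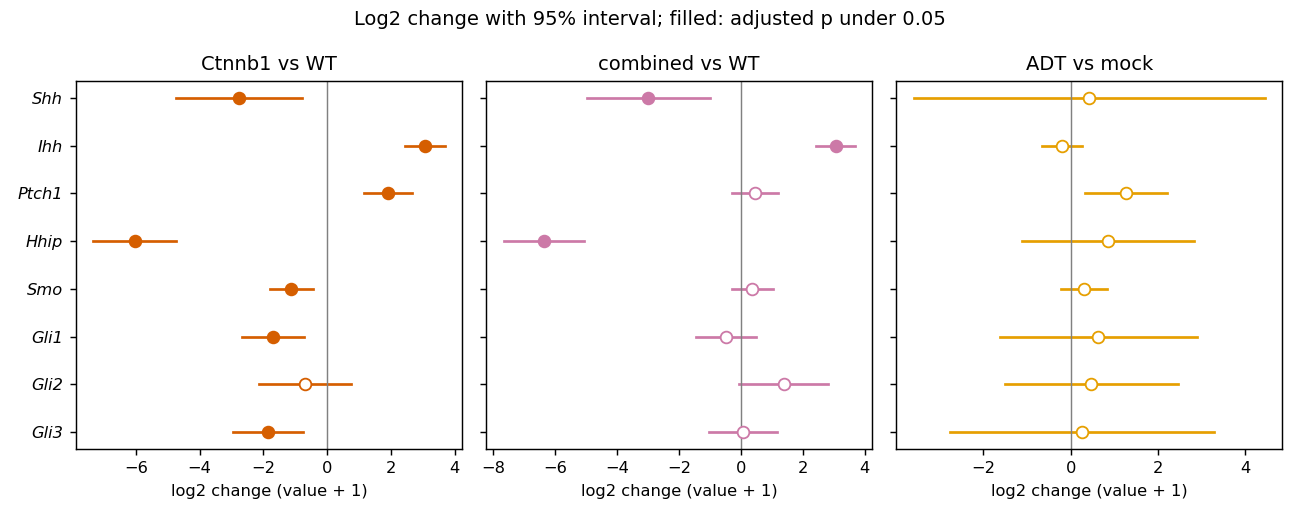
Log2 change of each gene with its 95% interval in Ctnnb1 tumours against WT, combined tumours against WT and ADT against mock tumours, filled where the adjusted p (limma) was under 0.05. Ihh lies right of 0 and Hhip and Shh left of 0 against WT in both genotypes, and no ADT point is filled.

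The order of the genes by scaled reads per kilobase of exon differed between the groups. In Ctnnb1 tumours Ihh led at 223.8 ± 41.7, followed by Smo (80.7 ± 32.6) and Ptch1 (71.0 ± 9.99), which overlapped, and Hhip came last at 0.624 ± 0.509. In combined tumours Ihh (229.8 ± 83.1) and Smo (215.0 ± 34.8) overlapped at the top, Gli1, Ptch1, Gli2, Gli3 and Shh overlapped with their neighbours between 38.0 and 14.4, and Hhip was last at 0.441 ± 0.292. In WT the order was Smo (165.5 ± 15.3), Shh (84.9 ± 10.2), Gli1 (47.8 ± 5.23) and Hhip (42.2 ± 6.23), of which Gli1 and Hhip overlapped. Ihh (26.4 ± 4.55), Ptch1 (19.1 ± 3.42) and Gli3 (17.7 ± 0.422) followed in WT, overlapping with their neighbours, and Gli2 was last at 8.98 ± 1.71 (means ± SD, n = 3 libraries in every group).

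Ptch1 and Gli1, both target genes of the pathway, moved apart in Ctnnb1 tumours. The log2 ratio of Ptch1 to Gli1 per kilobase was 1.63, 2.71 and 2.50 in Ctnnb1 tumours, against -1.40, -0.98 and -1.63 in WT, means of 2.28 ± 0.57 and -1.34 ± 0.33 (SD, n = 3 each; exact two-sided permutation test, p = 0.1, the smallest possible). In the combined tumours it was -1.17, -1.44 and 1.44, with replicates 10 and 11 within the WT range and replicate 12 just under the lowest Ctnnb1 library, and the mean of -0.39 ± 1.59 did not differ from WT beyond the spread (exact p = 0.5).

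The other pathway genes were taken from lists of 4 roles. Their counts stand beside 58.5% of all genes called in Ctnnb1 tumours (28.9% higher and 29.6% lower). In combined tumours 57.8% of all genes were called (28.3% higher and 29.5% lower). Of the 4 co-receptors, Lrp2 rose and Gas1 fell in both tumour groups, while Boc and Cdon were not called. Lrp2, an endocytic receptor that takes up Shh in the forebrain, had 1660, 206 and 1037 scaled reads in Ctnnb1 tumours and 988, 773 and 1289 in combined tumours, against 48, 4 and 45 in WT. Gas1, a membrane co-receptor that aids ligand binding, had 133, 219 and 252 in Ctnnb1 tumours and 821, 1035 and 220 in combined tumours, against 1506, 1692 and 1542 in WT. The log2 changes of Gas1 were -3.01 (adjusted p = 0.00158, limma) and -1.46 (adjusted p = 0.0411).

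Of the 6 tested genes for ligand lipidation, release and carriage, 1 rose and 1 fell in Ctnnb1 tumours, and 3 rose and 1 fell in combined tumours. Hhat, which attaches palmitate to Hedgehog ligands, rose in both (log2 changes 0.90 and 1.46, adjusted p = 0.0494 and 0.00680, limma). Scube2, a secreted carrier of lipid-bound ligand, fell in both, with 66, 47 and 100 scaled reads in Ctnnb1 tumours and 146, 299 and 144 in combined tumours, against 387, 699 and 447 in WT. Scube1, a relative of Scube2, and Disp1, which releases ligand from the cell, rose in combined tumours (1.05 and 0.62, adjusted p = 0.00346 and 0.0447). Dhh was not tested here.

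Of 19 tested cytoplasmic and ciliary regulators, 4 rose and 6 fell in Ctnnb1 tumours (median log2 change -0.0486), and 4 rose and 2 fell in combined tumours (median 0.0406). Tulp3, which carries receptors into the cilium, had 446, 414 and 617 scaled reads in Ctnnb1 tumours and 831, 833 and 765 in combined tumours, against 2124, 2488 and 2142 in WT (log2 changes -2.21 and -1.47, adjusted p = 2.34e-05 and 1.04e-04, limma). Evc, which binds Smo at the base of the cilium, fell in Ctnnb1 tumours (-2.39, adjusted p = 0.00101). Csnk1e, a casein kinase, rose in both groups (1.73 and 1.55, adjusted p = 2.93e-04 and 4.91e-04). Sufu, the inhibitor that holds Gli proteins, had 1006, 1392 and 1140 scaled reads in Ctnnb1 tumours, against 1084, 1003 and 934 in WT, and was not called (0.22, adjusted p = 0.169). Spop, part of the ligase that degrades Gli proteins, fell by 0.51 in Ctnnb1 tumours and by 0.53 in combined tumours, but by 0.02 and 0.01 with equal totals. Of the 6 that fell in Ctnnb1 tumours, Prkaca and Prkacb, subunits of protein kinase A, also came near 0 with equal totals (-0.02 and -0.09).

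Among 10 tested genes that mesenchyme is known to switch on under Hedgehog signal, 4 fell in Ctnnb1 tumours and none rose, and in combined tumours 1 rose and 2 fell. Over all genes 29.6% were called lower and 28.9% higher in Ctnnb1 tumours, and 29.5% lower and 28.3% higher in combined tumours. Igfbp6 had 232, 260 and 163 scaled reads in Ctnnb1 tumours, against 999, 1128 and 1202 in WT (log2 change -2.36, adjusted p = 0.00345, limma). Osr1, a transcription factor of mesenchyme, had 63, 60 and 68 in Ctnnb1 tumours and 71, 110 and 27 in combined tumours, against 524, 341 and 198 in WT, and fell in both groups (-2.35 and -2.44, adjusted p = 0.00512 and 0.00428). Foxf2 and Ccnd2 fell in Ctnnb1 tumours (-2.93 and -1.01). Wnt5a, a secreted Wnt, rose in combined tumours (2.11, adjusted p = 0.00613) and Bmp4 fell there (-0.74, adjusted p = 0.0119). Cxcl14 had 15839, 5597 and 3086 in combined tumours, against 1575, 1619 and 1660 in WT, and was not called (2.00, adjusted p = 0.0557, limma). With equal totals the change of Bmp4 in combined tumours was -0.23 and that of Ccnd2 in Ctnnb1 tumours -0.51. Those of Igfbp6, Osr1 and Foxf2 in Ctnnb1 tumours were then -1.87, -1.86 and -2.47.

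Genes of other cell types differed between the groups too, and their part in the results above was not tested. Over all genes 58.5% were called in Ctnnb1 tumours and 57.8% in combined tumours. Of 10 fibroblast and stroma genes, 1 fell in Ctnnb1 tumours (median log2 change -0.402), and 8 rose in combined tumours (median 2.01). All 10 smooth muscle genes fell in both groups (medians -5.77 and -3.59). Of 5 Schwann cell and nerve genes, 4 fell in Ctnnb1 tumours and 3 in combined tumours. Sox10 among them had 1, 1 and 18 scaled reads in Ctnnb1 tumours and 15, 1 and 8 in combined tumours, against 444, 131 and 110 in WT. Skeletal muscle genes, with 5 and 6 of 6 lower, summed to 54 to 8954 in Ctnnb1 tumours and 97 to 1059 in combined tumours, against 9066 to 123245 in WT, and so differed between libraries of 1 group. Endothelial genes rose in 1 of 5 and 4 of 5. Of 7 epithelial genes 1 rose and 1 fell in Ctnnb1 tumours and 2 rose and 1 fell in combined tumours. Of the 4 tested urothelial genes 1 rose and 1 fell in Ctnnb1 tumours and 1 fell in combined tumours. Of the 6 tested squamous genes 4 rose in each group, and they summed to 792 to 2961 in Ctnnb1 tumours and 586 to 2676 in combined tumours, against 193 to 321 in WT; Krt16 among them was at 0 in 2 of the WT libraries.

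Androgen deprivation gave no called member in the inducible model. By limma, 0 of 8 members passed the adjusted threshold, as did 0.00859% of 23289 genes, 2 in all. At an unadjusted p under 0.05 there was 1 member, Ptch1, against 16.2% of all genes. The ADT and mock libraries did not overlap for 2 members, Ptch1 and Smo, or 25.0%, against 33.2% of all genes. Levels in this file set were scaled apart from those of the other groups and are compared only within it.

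Ptch1 had 1229, 1950 and 2462 scaled reads in ADT tumours, against 625 and 892 in mock tumours, so that every ADT library was above both mock libraries. Its log2 change was 1.27 (SE 0.36, unadjusted p = 0.0178, adjusted p = 0.211, limma; 95% interval 0.34 to 2.21), and it lay between 1.02 and 1.55 with any 1 library left out. Smo had 3222, 2392 and 2207 in ADT tumours, against 2077 and 2082 in mock tumours (0.31, SE 0.20, adjusted p = 0.497).

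Ihh had the smallest standard error of the 8 in this comparison, with 518, 461 and 479 scaled reads in ADT tumours, against 509 and 616 in mock tumours (log2 change -0.21, SE 0.18, adjusted p = 0.608; 95% interval -0.66 to 0.25). Shh had 34, 288 and 180 in ADT tumours, against 22 and 359 in mock tumours, and each group held a low and a high library (0.43, SE 1.54, adjusted p = 0.908). Ihh made up 93.43%, 59.92% and 71.31% of the 2 ligands per kilobase in ADT tumours, against 95.58% and 61.58% in mock tumours. Ihh was the major ligand transcript in all 5 libraries. The mean log2 ratio of Ihh to Shh was 1.91 ± 1.71 in ADT tumours (SD, n = 3) and 2.56 ± 2.65 in mock tumours (SD, n = 2; exact two-sided permutation test, p = 0.8, where 0.2 is the smallest possible).

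Hhip was low in all 5 libraries, with 13, 10 and 26 scaled reads in ADT tumours, against 4 and 15 in mock tumours. The Gli genes were spread within the ADT group. Gli1 had 1166, 263 and 228 scaled reads in ADT tumours, against 392 and 179 in mock tumours. Gli2 had 762, 289 and 206 in ADT tumours, against 435 and 151 in mock tumours. Gli3 had 1604, 348 and 112 in ADT tumours, against 368 and 298 in mock tumours. ADT replicate 1 was the highest library for all 3, and without it their log2 changes were -0.11, -0.07 and -0.74 in place of 0.64, 0.47 and 0.26. The stroma genes summed to 411186, 90792 and 139224 in ADT tumours, against 518860 and 103619 in mock tumours, with replicate 1 highest in each group; their part in the Gli levels was not tested.

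**Figure D4:**
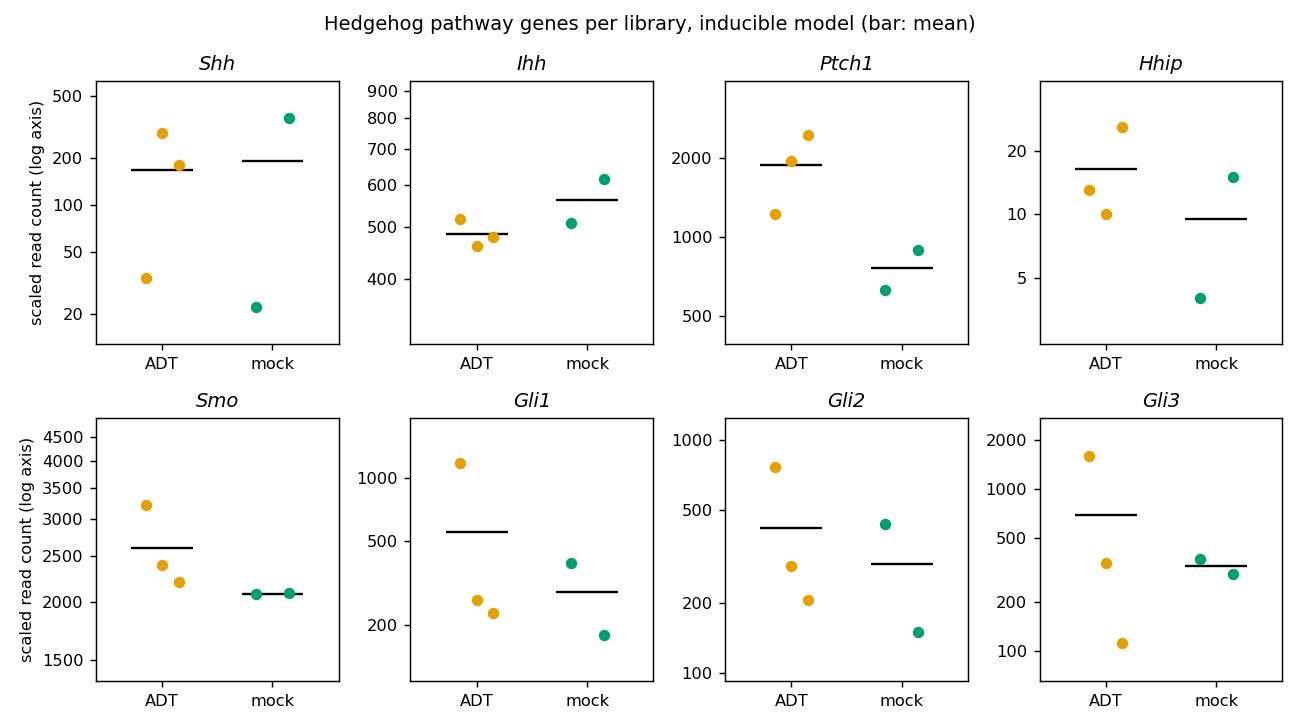
Scaled read counts (log axis) of the 8 genes in each ADT and mock library of the inducible model, with points for libraries and bars for group means. Ptch1 and Smo are higher in the 3 ADT libraries than in both mock libraries, and the other 6 genes overlap.

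By scaled reads per kilobase, Smo was the highest member in ADT tumours (463.8 ± 96.2) and in mock tumours (370.0 ± 0.629), Ihh was next (159.4 ± 9.56 in ADT tumours, 184.5 ± 24.8 in mock tumours) and Hhip was last (1.80 ± 0.937 and 1.05 ± 0.857; SD, n = 3 and 2). In ADT tumours Ptch1 overlapped with Ihh, and the genes from Ptch1 down to Shh overlapped with their neighbours. In mock tumours Ihh stood clear of Shh, and the genes from Shh down to Gli3 overlapped with their neighbours.

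No gene of the other pathway lists was called under ADT by limma, and at an unadjusted p under 0.05 there were 1 of 7 release genes, 2 of 4 co-receptors, 6 of 20 cytoplasmic and ciliary regulators and 6 of 11 mesenchymal genes, against 16.2% of all genes. Of these 6 genes of the mesenchymal list 5 were higher and 1 lower in ADT tumours, and which cells expressed them was not tested. Bmp4 had 5045, 6120 and 3364 scaled reads in ADT tumours, against 248 and 295 in mock tumours (log2 change 4.11, SE 0.29, adjusted p = 0.0657). Foxl1, a forkhead factor of gut mesenchyme, had 156, 158 and 286 in ADT tumours, against 12 and 15 in mock tumours (3.74, adjusted p = 0.0993). Wnt5a had 30100, 18394 and 17878 in ADT tumours, against 3866 and 7449 in mock tumours (2.00, adjusted p = 0.151). Ccnd1 had 37132, 22101 and 31248 in ADT tumours, against 3939 and 10712 in mock tumours (2.18, adjusted p = 0.181). Igfbp6 went the other way, with 438, 524 and 857 in ADT tumours, against 2247 and 1161 in mock tumours (-1.47, adjusted p = 0.221). These groups did not overlap, and the adjusted p missed the threshold for each. Tulp3 had 3179, 3607 and 3599 in ADT tumours, against 975 and 891 in mock tumours (1.89, SE 0.13, adjusted p = 0.0657). Lrp2 had 1322, 768 and 623 in ADT tumours, against 3707 and 4135 in mock tumours (-2.19, adjusted p = 0.128). Of the other cell type lists no gene was called. Smooth muscle genes summed to 14677 to 25195 in ADT tumours and 23948 to 38021 in mock tumours. Endothelial genes summed to 7170 to 7467 against 10065 to 24498. Schwann cell and nerve genes summed to 682 to 1253 against 2077 to 3364. All other sums overlapped. Krt8, Cdh1 and Epcam, 3 of 7 epithelial genes, were lower in every ADT library than in both mock libraries. So were 3 of 5 endothelial and 1 of 5 Schwann cell and nerve genes, where 33.2% of all genes did not overlap. The part of these cells in the results above was not tested.

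The genes most like Shh, Ihh, Ptch1 and Gli1 across the 9 libraries of the Ctnnb1, combined and WT groups were found by the root mean square difference of log2 profiles centred on their means, among 13889 genes with a mean of at least 20. For Shh they were Trp63, the basal epithelial transcription factor (0.401), Bai1 (0.572), Hopx (0.599) and Abcb5 (0.603), where the median gene was at 1.72. For Ihh they were Capg (0.262), Inf2 (0.278), Plaur (0.279) and Frrs1 (0.285), with a median of 1.51. For Ptch1 they were Lmbrd2 (0.204), Nr2c2 (0.208), Zbed6 (0.225) and Ablim1 (0.256), with a median of 0.977. For Gli1 they were Pmp22 (0.198), Calcrl (0.215), Palm (0.225) and Plekho1 (0.228), with a median of 0.943.

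In the inducible model, which was not used to choose these genes, Trp63 stayed close to Shh. Trp63 had 320, 39 and 288 scaled reads in Ctnnb1 tumours and 566, 42 and 138 in combined tumours, against 965, 857 and 816 in WT, and its lowest library in each tumour group was that of Shh. In the inducible model it had 373, 1631 and 968 in ADT tumours, against 105 and 1602 in mock tumours, and its difference from Shh over those 5 libraries was 0.458, rank 19 among 16098 genes (median 1.68). Hopx ranked 299, whereas Bai1 and Abcb5 ranked 14346 and 15911. The basal keratin Krt5 also went low and high with Shh there, with 1344, 17743 and 10835 in ADT tumours, against 384 and 12184 in mock tumours. Krt14, another basal keratin, had 4796, 8458 and 7265 in ADT tumours, against 372 and 5391 in mock tumours. Its ADT replicate 1 lay close to mock replicate 2, unlike that of Shh. The squamous genes were low in ADT replicate 1 and mock replicate 1, summing to 784, 7104 and 8883 in ADT tumours, against 447 and 8510 in mock tumours. Against WT, where Shh fell, 4 of the 6 tested squamous genes rose in each tumour group. In the other file set Krt5 had 3619, 392 and 2249 in Ctnnb1 tumours and 4421, 270 and 1329 in combined tumours, against 3745, 3103 and 2125 in WT. Its lowest library in each tumour group was that of Shh. Unlike Shh, Krt5 overlapped with WT (log2 changes -0.98 and -1.32, adjusted p = 0.450 and 0.315, limma). In that file set Krt14 had 1186, 159 and 1285 in Ctnnb1 tumours and 1939, 298 and 718 in combined tumours, against 605, 511 and 319 in WT. It was lowest in the same tumour libraries and also overlapped with WT (0.43 and 0.69, adjusted p = 0.694 and 0.528). Trp63 itself was not called in Ctnnb1 tumours (log2 change -2.50, adjusted p = 0.0619, limma) or in combined tumours (-2.55, adjusted p = 0.0591), and the part of basal cells in the Shh result was not tested. Ihh varied little in the inducible model, where the median gene differed from it by 0.407. Capg (0.244) and Plaur (0.307) differed from Ihh by about as much as in the first set. They ranked 4043 and 5904, since many other genes were as near. Inf2 (0.561) and Frrs1 (0.423) differed from Ihh by more than in the first set and by more than the median gene, at ranks 10113 and 8289. The genes near Ptch1 differed from it by 0.683 to 0.962 there (median 0.811). Of those near Gli1, Plekho1 ranked 735, Pmp22 959 and Palm 3532. Calcrl ranked 11942, with a difference of 1.22 where the median gene was at 1.01.

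**Figure D5:**
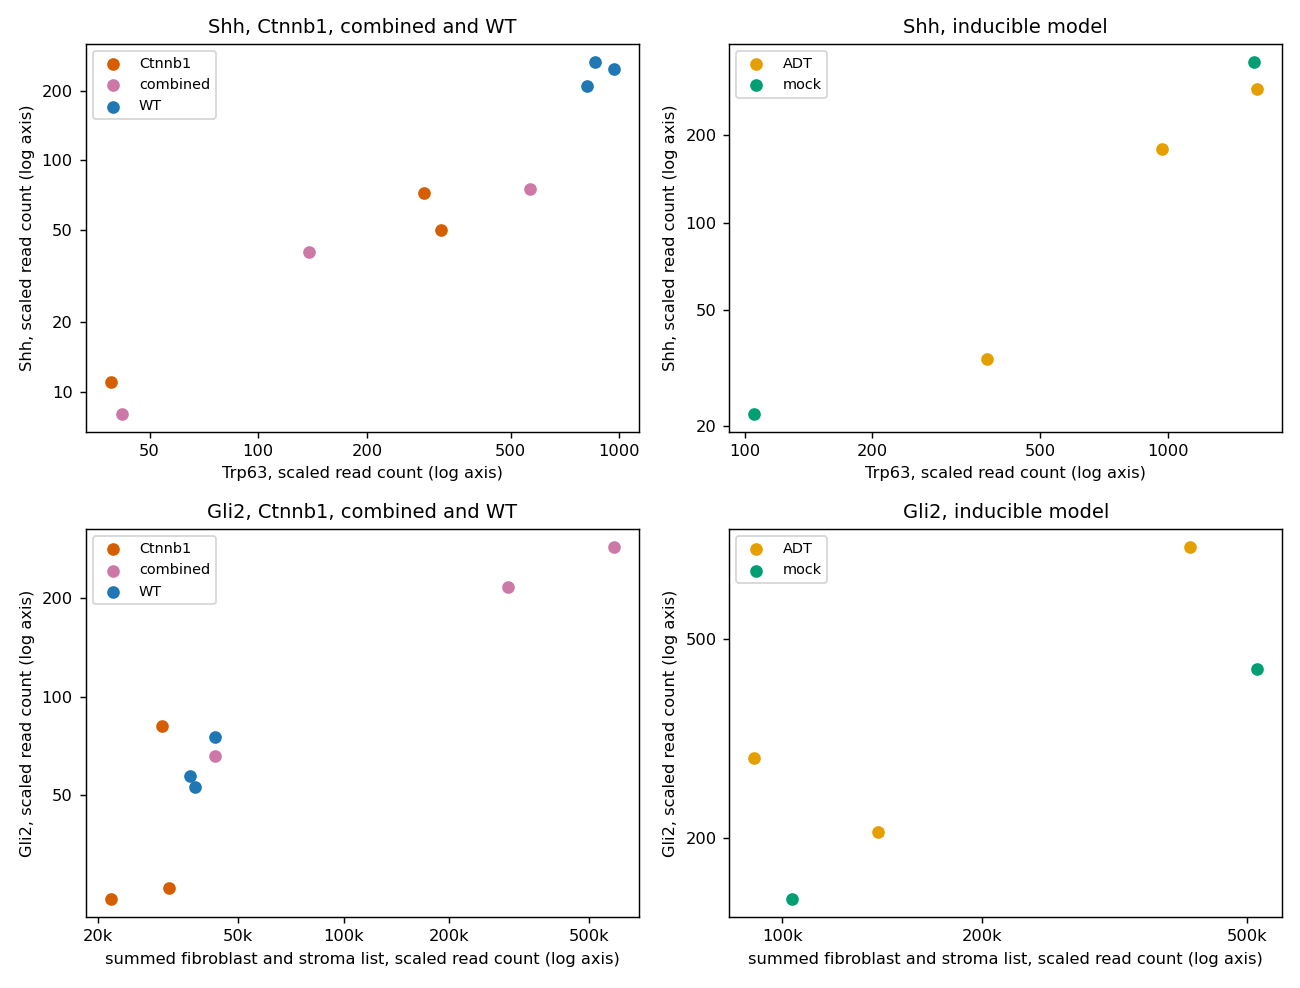
Shh against Trp63 (top) and Gli2 against the summed fibroblast and stroma genes (bottom), in scaled read counts on log axes, with a point per library, for the Ctnnb1, combined and WT groups (left) and the inducible model (right). Within each tumour group at left the lowest Shh library is also the lowest for Trp63, as is mock replicate 1 at right, and the highest Gli2 values are those of combined replicates 10 and 11 at left and of ADT replicate 1 and mock replicate 1 at right.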

How the data were processed

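Labels' protocols state RNA integrity numbers above 7.3 and paired 90-nt sequencing by BGI (HiSeq 2000), with 6 Gb or more a sample. The submitters' processing notes name the build GRCm38.p3, DESeq2 1.14.1, R 3.2.3, HTSeq 0.6.0, Bowtie2 2.2.6.0, TopHat2 2.1.0 and FastQC 0.11.4, without roles or settings. The deposited values are scores, taken to be gene counts that the authors scaled by library and rounded, because median ratios between libraries of a file set were 0.981 to 1.005. Sequencing depth is unknown, so no count model was run.

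In the files of the Ctnnb1, combined and WT groups, genes without an Entrez number, with a number on several features, or repeating another gene's values were left out. In those of the inducible model only repeats of an Ensembl gene number were left out. A gene was tested with a value of at least 1 in 3 of 9 libraries (Ctnnb1, combined and WT fitted together) or 2 of 5 (ADT and mock). Comparisons used limma 3.58.1 (trend in the prior variance, log2(value + 1)), run in R 4.3.3 with Benjamini-Hochberg adjustment across every gene tested; the fit was tested on simulated data. Ratios were compared by exact permutation (SciPy 1.17.1). Lengths are exon bases of GENCODE M21, merged over all annotated transcripts of a gene. Levels per kilobase, and so the order of the genes and the ratios of 2 genes within a library, depend on that choice. Of each other pathway list up to 4 genes with the smallest p were named, along with Sufu, Arhgap9, Gm26894, 9530036O11Rik, Igfbp6, Krt5, Krt8, Krt14, Cdh1, Epcam, Sox10, Krt16, Pbsn, Prkaca and Prkacb, chosen after their values were seen, as was the check of similar genes in the inducible model. The members and lists were chosen with earlier results of these data known. Alternatives were other pseudocounts, filters, scalings, prior variances and library sets, each library left out in turn, and a replicate block. A further genotype group and comparisons that rest on the further engineered change alone are not reported here.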

Additional observations from a re-analysis of the deposited data

How the results depend on the processing

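Members called in Ctnnb1 tumours numbered 6 to 7 with 1 library left out, when 6737 to 8838 of all genes were called. Relative to the stroma genes they numbered 4, in place of 7, when 1685 of 13905 genes were called. In combined tumours members called numbered 2 to 4 with 1 library left out, when 6697 to 8175 of all genes were called. With equal totals they numbered 6, in place of 3, when 9728 of 13905 genes were called. Equal totals made 78.9% and 81.9% of all calls against WT higher in Ctnnb1 and combined tumours, in place of 49.4% and 48.9%. Relative to the stroma genes the median of all genes in combined tumours was -1.85, and 3.86% of calls there were higher. The log2 changes there of Ptch1 (-1.38), Smo (-1.47), Gli2 (-0.45) and Gli3 (-1.77, adjusted p = 0.0429, limma) turned negative, while Gli1 fell by 2.32 (adjusted p = 0.0102). Gli1 there was 0.027 with equal totals and -0.81 to 0.032 with 1 library left out (turned without combined replicate 12), and Gli3 was -0.31 (without replicate 11) to 0.26. Under ADT, uncalled directions turned for Ihh relative to the stroma genes (0.29) and with 1 library left out for Shh (-1.56 to 2.41; without mock replicate 1, and -0.19 without ADT replicate 2), Gli1 (-0.11 to 1.20), Gli2 (-0.29 to 1.24) and Gli3 (-0.74 to 1.17), the Gli genes without ADT replicate 1 and Gli2 also without mock replicate 2. No member was called under ADT in any alternative run, while genes called in all ranged from 0 to 172 in place of 2. The cause of these shifts was not tested. Replicate numbers pair no samples by the labels; with the replicate block for the 2 numbers that ADT and mock libraries share, 0 members and 0 genes were called, and the deviations of same-numbered libraries correlated at 0.223 and 0.117. Precision is limited by 2 or 3 libraries per group and by low values of Hhip.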
